A study of Mus musculus with 472 samples.

Results

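Satb1, Tfap2d, Bnc2, Foxp1, Neurod2, Foxp2 and Zic1 encode transcription factors that mark classes of retinal ganglion cells (RGCs), the neurons whose axons form the optic nerve. They are taken from the matrix by gene symbol, with no threshold on measured values, and are 7 of the 55450 genes in the deposited matrix. The study holds single RGCs from C57BL/6J mice aged 7 to 9 weeks, all in 1 untreated group with no genotype or treatment contrast. According to the labels' protocols, single cells were patched in the flat-mounted retina: for each, its responses to light were recorded, its content was drawn into the pipette and the RNA was amplified by Smart-seq2, which covers whole transcripts and counts reads, as it carries no molecular identifiers. The labels name no animals, so all cells together count as 1 sample: no difference below was tested and no p-value was computed. Levels are counts per 1000000 gene counts (CPM). A level of at least 10 CPM makes a gene positive in a cell, which at the median depth is about 51.8 counts. Shares carry exact (Clopper-Pearson) 95% intervals, which cover counting error only.

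As background, RGCs fall into many types that differ in dendrite shape, light response and brain target, and transcription factors that persist in the adult cell part these types into classes. Satb1 is a chromatin organiser described in ON-OFF direction-selective RGCs, where it acts on the contactin gene Cntn5. Tfap2d (AP-2 delta) belongs to the AP-2 family, whose members Tfap2a and Tfap2b act in amacrine cells. Foxp1 and Foxp2 are forkhead repressors, and Foxp2 defines the F-RGCs, part of which also carry Foxp1. Neurod2 is a basic helix-loop-helix activator that binds E-boxes, Bnc2 is a basonuclin zinc finger protein, and Zic1 is a zinc finger factor of the family of Zic2, which directs uncrossed RGC axons during development.

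Of the 7 genes, 6 had a promoter window in the RefSeq table used here, and Foxp2 is named only. The 250 bases before the start site are shown for 3 of them, since the results turn on the pair Satb1 and Tfap2d and on Neurod2. Build GRCm38.p6 is used, each sequence reads 5′ to 3′ along the gene's own strand, and of several RefSeq starts the one nearest the annotated gene start is shown. Capitals mark TAAT on either strand, the core letters bound by many homeodomain proteins, in the Satb1 and Tfap2d windows, and CANNTG, the E-box letters, in the Neurod2 window.
Satb1 (chr17:51833291-51833540, minus strand): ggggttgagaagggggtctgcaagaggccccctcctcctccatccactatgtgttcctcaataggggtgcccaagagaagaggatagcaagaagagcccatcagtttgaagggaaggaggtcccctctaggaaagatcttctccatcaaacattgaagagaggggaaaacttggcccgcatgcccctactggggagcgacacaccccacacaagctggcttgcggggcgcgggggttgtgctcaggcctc
Tfap2d (chr1:19102772-19103021, plus strand): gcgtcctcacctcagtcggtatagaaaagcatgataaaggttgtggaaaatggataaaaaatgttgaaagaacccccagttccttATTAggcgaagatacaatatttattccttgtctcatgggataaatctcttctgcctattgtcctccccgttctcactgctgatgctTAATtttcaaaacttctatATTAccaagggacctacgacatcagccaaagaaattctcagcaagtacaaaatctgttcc
Neurod2 (chr11:98329646-98329895, minus strand): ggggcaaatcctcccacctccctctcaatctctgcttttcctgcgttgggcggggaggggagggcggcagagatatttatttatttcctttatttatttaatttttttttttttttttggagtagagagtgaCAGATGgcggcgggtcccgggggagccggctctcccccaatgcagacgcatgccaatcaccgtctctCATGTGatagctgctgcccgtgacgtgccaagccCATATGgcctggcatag
The Tfap2d window held TAAT at 3 places and the Satb1 window at 0, and 54.9% of all 32817 windows of the table hold it at least at 1 place. The Neurod2 window held CANNTG at 3 places, a motif found in 66.2% of windows, and TAAT at 1 place, left in lower case. The AP-2 letters GCCNNNGGC, found in 13.7% of windows, were at 0 places in each of the 3. Base composition differed, with a GC share of 58% for Satb1, 39.6% for Tfap2d and 52.8% for Neurod2. These matches describe letters only, since no binding or methylation was measured.

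Cells held between 58907 and 13004888 gene counts, with a median of 5184801.5, and 7 cells had under 1000000. The median number of positive genes per cell was 5554.5 and the highest was 8937. Library names fall into 5 groups by shared strings, taken here as sequencing runs and given the letters A to E. Groups B and C were set by a library-number prefix alone, so the runs are inferred from the names. Run B holds 98 cells, run C 62, run D 59 and run E 19, and run A the other 49.6% of cells. Run D was the poorest, with a median of 3024 positive genes. In 460 cells (97.5%), 6 or more of 12 general RGC genes were positive, as the label implies. RNA of neighbouring retinal cells was also present: 3 or more of 9 amacrine markers were positive in 44.5% of cells, 3 or more of 10 bipolar markers in 35.2% and 3 or more of 8 rod markers in 50.2%. The highest correlation between any 2 cells was 0.868, so no library looked like a copy of another.

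Each factor was on in a minority of cells and at 0 in many others. Satb1 (chromosome 17, 51736187 to 51833290, mm10) came out positive in 41.7% (37.2% to 46.3%) of the cells. Over those cells its level ran from 10.03 CPM through a median of 74 CPM to 1190 CPM, and 31.8% of cells had no count at all. High levels came from single cells in several runs: the top cell was in run D, where the median over positive cells was only 44.9 CPM. Tfap2d (chromosome 1, 19103022 to 19166346) reached the threshold in 34.96% (30.7% to 39.4%), with a lowest level of 10.1, a median of 69.01 and a highest of 388.9 CPM. Its levels were the most even of the set, as the 5 highest cells gave 10.6% of its summed CPM. Bnc2 (chromosome 4, 84275095 to 84675275) reached it in 23.1% (19.4% to 27.2%), and had the highest median over positive cells, 90.4 CPM, in a range of 10.9 to 684 CPM. It was close to all-or-none, with 280 cells at 0, 5 cells between 5 and 10 CPM and 7 between 10 and 20 CPM.

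Foxp1 and Neurod2 behaved differently, as low-level genes spread across the threshold. Foxp1 (chromosome 6, 98925338 to 99522721) was positive in 91 cells, or 19.3% (15.8% to 23.1%), from 10.01 through a median of 32.9 to 238.6 CPM, and only 11 cells reached 100 CPM. Between 5 and 10 CPM lay 27 cells and between 10 and 20 CPM lay 25, so its share depends on where the line is drawn. Neurod2 (chromosome 11, 98325415 to 98329648) was positive in 62 cells, or 13.1% (10.2% to 16.5%), with 10.7, 34.1 and 138.5 CPM as lowest, median and highest level. It had 18 cells between 5 and 10 CPM, 15 between 10 and 20 CPM and 6 at 100 CPM or more. Foxp2 (chromosome 6, 14901349 to 15441977) was positive in 36 cells, or 7.63% (5.40% to 10.4%), from 13.8 CPM through a median of 73.9 to 772 CPM. It was rare but strong where present: 15 of the 36 cells reached 100 CPM and the 5 highest cells gave 45.7% of its summed CPM. Zic1 (chromosome 9, 91358058 to 91365810) was positive in 18 cells, or 3.81% (2.28% to 5.96%), from 10.3 through a median of 25.6 to 304.6 CPM. Its summed level rested on few cells, as the 5 highest gave 65.6% of it and 90.5% of cells were at 0.

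**Figure D1:**
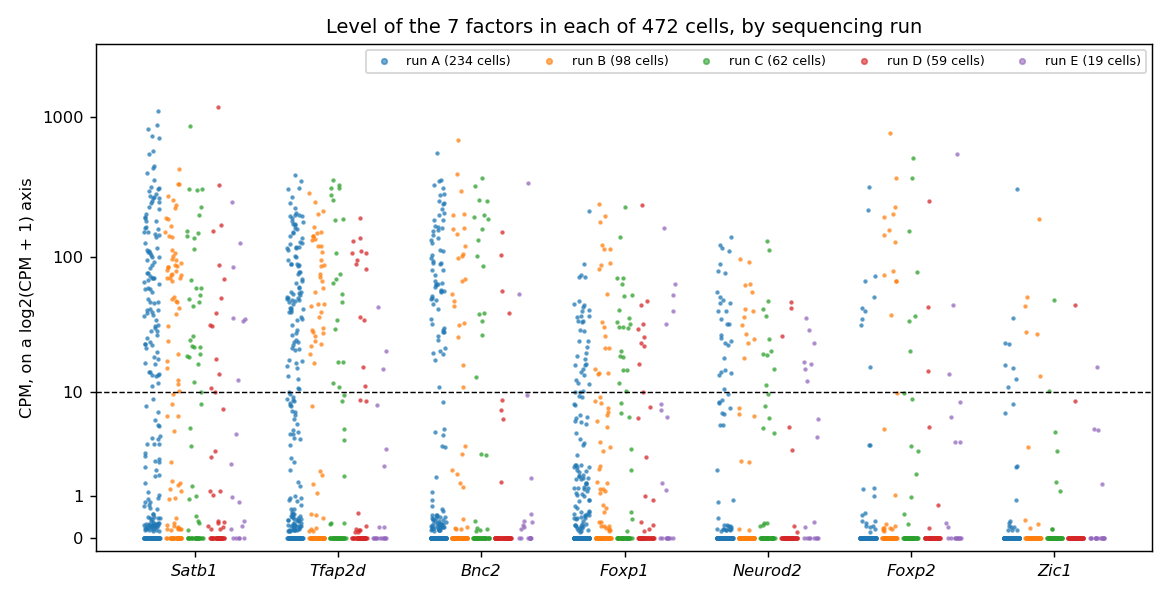
Level of each factor in every cell, in CPM on a log2(CPM + 1) axis, with the cells of runs A to E side by side and the 10 CPM threshold dashed. Satb1, Tfap2d and Bnc2 fill the range above 100 CPM in most runs, Foxp1 and Neurod2 crowd around the threshold, and Foxp2 and Zic1 are high in few cells.

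Compared per length of exon, the order of the mean levels over all cells changed. Tfap2d, with 1954 bases of merged exon, led at 17.8 CPM per kb, and its run means ran from 2.50 in run E to 22.96 CPM per kb in run C. Bnc2 averaged 3.66 CPM per kb (0.776 in run D to 4.77 in run C) and Satb1, with 19027 exon bases, 3.09 CPM per kb (1.62 in run E to 3.66 in run A). These neighbours in the order overlap in their run means. Neurod2 averaged 1.95 CPM per kb (0.674 to 2.69), Foxp1 0.768 (0.463 to 1.44), Foxp2 0.729 (0.237 to 2.02) and Zic1 0.362 (0.160 to 0.641). In that lower group each gene's run means overlap those of its neighbour in the order.

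How many genes a cell yielded moved with several of these shares, and little with that of Foxp2. With the cells in 5 equal bins of positive genes, with at most 3565 genes in the lowest and 6749 to 8937 in the highest, Satb1 was positive in 21.1% of the lowest bin and 55.8% of the highest. For Foxp1 these shares were 6.32% and 30.5%, and for Neurod2 5.26% and 21.1%. Foxp2 was at 6.32% and 7.37% and Zic1 at 1.05% and 4.21%, with overlapping intervals for each. The Zic1 shares rest on 1 and 4 positive cells, too few to tell whether they moved. Run by run, the Satb1 share was 43.2% (A), 46.9% (B), 46.8% (C), 23.7% (D) and 36.8% (E). The Foxp2 share was 4.27% (A), 13.3% (B), 11.3% (C), 5.08% (D) and 15.8% (E). Foxp1 was positive in 33.9% of cells in C (22.3% to 47.01%) and 15.4% in A (11.01% to 20.7%). Which animals went into which run is not given in the labels used here, so runs and animals cannot be told apart.

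**Figure D2:**
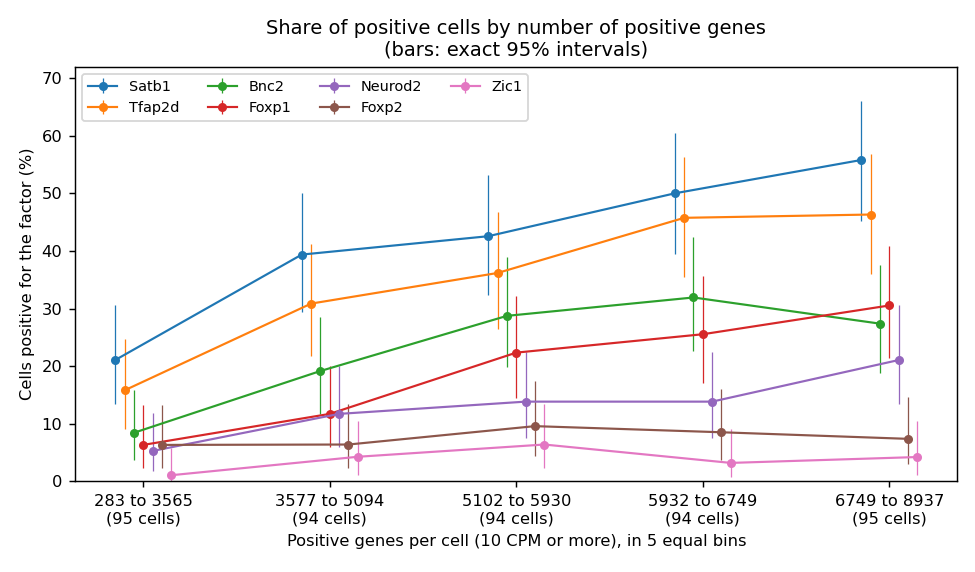
Share of cells positive for each factor in 5 bins of the number of positive genes per cell, with exact 95% intervals. Satb1 goes from 21.1% in the lowest bin to 55.8% in the highest, while Foxp2 stays between 6.32% and 9.57%.

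Most cells carried at least 1 of the 7 factors, and combinations were many. In 360 cells, or 76.3% (72.2% to 80.04%), at least 1 was positive, and in 44.9% (40.4% to 49.5%) 2 or more were. A single factor was positive in 31.4% of cells, 2 in 26.3% and 3 in 15.3%, while 14 cells carried 4 and 2 cells carried 5, and 51 different combinations occurred. The most frequent were Satb1 alone (39 cells), Satb1 with Tfap2d (39), Tfap2d alone (38), Satb1 with Tfap2d and Bnc2 (27) and Bnc2 alone (25). The 23.7% of cells with none of them had a median of 4011.5 positive genes, against 5389 in cells with 1 factor and 6145 in cells with 3. The part of recovery in cells without a factor was not tested.

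Satb1 and Tfap2d coincided more often than their separate shares imply, and this was the clearest tie within the set. Tfap2d was positive in 51.3% of Satb1-positive cells (44.1% to 58.4%), against 23.3% of Satb1-negative cells (18.4% to 28.7%). Both were positive in 21.4% of all cells, 1.47 times the number expected from independent shares (68.9 cells) and 1.35 times that formed within bins of positive genes (75.1 cells). Run A held 56 such cells against 39.7 expected, run B 23 against 17.4, run C 15 against 9.35, run D 6 against 3.08 and run E 1 against 1.11. Expected numbers for a run or another subset of cells come from both shares in that subset. Without cells carrying 3 or more amacrine or bipolar markers, 49 cells were positive for both against 31.97 expected. Satb1 and Bnc2 met in 65 cells against 49.8 expected within bins, and Bnc2 was positive in 32.99% of Satb1-positive cells (26.5% to 40.03%) and 16% of Satb1-negative cells (11.9% to 20.9%). Tfap2d and Bnc2, by contrast, met in 45 cells against 42.3 expected within bins.

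Other pairs met less often, or in numbers too small to weigh. Bnc2 and Neurod2 met in 7 cells against 15.9 expected within bins: Neurod2 was positive in 6.42% of Bnc2-positive cells (2.62% to 12.8%) and 15.2% of Bnc2-negative cells (11.6% to 19.3%). The shortfall was in run A (3 against 7.78) and run C (0 against 2.84), while run B had 3 against 2.92 and run E 1 against 0.737. Run D had 0 against 0.203, too few expected to show a shortfall. Among cells without 3 or more amacrine markers, 0 cells carried both against 4.96 expected. At a threshold of 1 CPM the same pair met in 22 cells against a pooled expectation of 23.9. At 10 CPM the pooled expectation was 14.3, so the gap was seen at 10 CPM and hardly at 1 CPM. Foxp1 and Neurod2 met in 7 cells against 13.9. Zic1 and Tfap2d met in 1 cell against 6.79, and Foxp2 and Zic1 in 6 cells against 1.44. Of the 6 cells with Foxp2 and Zic1, 1 was left among cells without 3 or more amacrine markers, against 0.305 expected there. Of the 21 pairs, 13 were above the pooled expectation and 9 above that within bins.

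**Figure D3:**
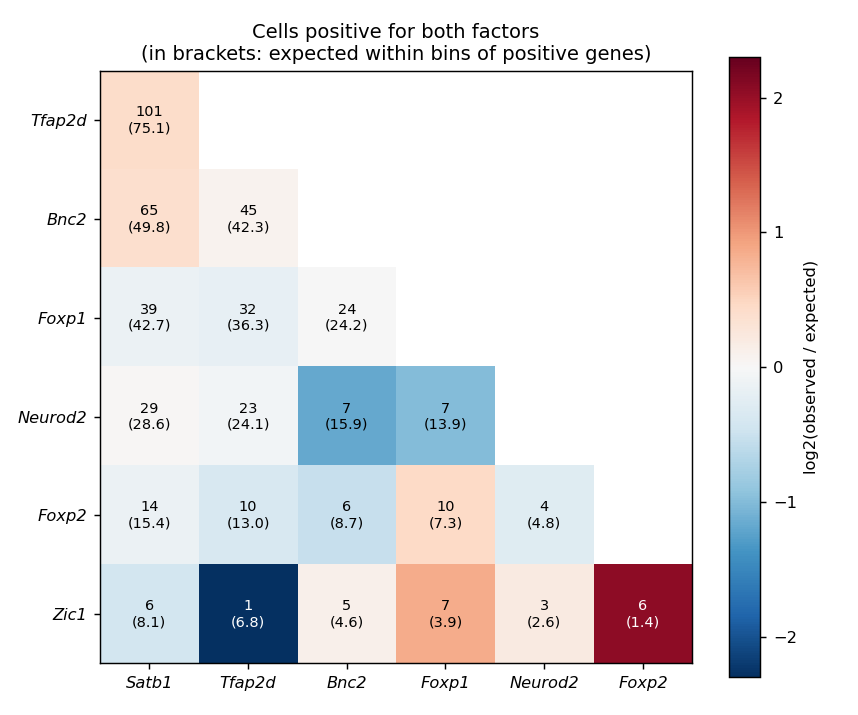
Number of cells positive for both factors of each of the 21 pairs, with the number expected within 5 bins of positive genes in brackets, coloured by the log2 ratio of observed to expected. Satb1 with Tfap2d (75.1 expected) and with Bnc2 (65 against 49.8) lie above, Bnc2 with Neurod2 (7 against 15.9) lies below, and the darkest squares rest on 6 cells or fewer.

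Satb1-positive cells carried genes of direction-selective RGCs more often than Satb1-negative cells. Of 14167 genes compared, 0.184% reached a Pearson r of 0.3 with Satb1 over all cells on log2(CPM + 1), and 3 of the 5 listed direction-selective genes did. All such correlations share the run and depth of each cell between their genes, and are descriptions. Cartpt, which encodes the CART neuropeptide of ON-OFF direction-selective cells, was the most alike (r 0.45) and was positive in 75.6% of Satb1-positive and 46.9% of Satb1-negative cells. Col25a1, a membrane collagen gene, had r 0.37 and was positive in 23.9% and 6.55% of those cells. Cdh6, a cadherin gene of the same cells, had r 0.36, with 46.2% and 22.9%. Next in likeness after Cartpt were Pcdh11x (r 0.41), a protocadherin gene, C230085N15Rik (0.41), A930017K11Rik (0.40) and Tfap2d (0.40). C230085N15Rik lies inside Satb1 on the same strand (51757295 to 51761621) and was positive in 99 cells, 67 of them Satb1-positive, so their counts cannot be told apart. The same holds for E430014B02Rik, Gm36931, 5830444F18Rik and Gm37248, also inside Satb1 and positive in 14 to 23 cells each.

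Among other listed factors, Pou4f1, the POU factor of most adult RGCs, had r 0.32 with Satb1 and was positive in 93.9% of Satb1-positive cells, against 72.7% of Satb1-negative ones. Seen from the other side, Satb1 was positive in 13.8% of the 87 cells without Pou4f1 and in 48.1% of those with it. Cntn5, the contactin gene linked to Satb1 in direction-selective cells, was positive in 34.5% of Satb1-positive cells and 26.5% of Satb1-negative cells (68 cells with both, 64.2 expected within bins). Chd4 and Nsd1, both chromatin regulators, were positive in most cells (82% and 83.1%) and had r 0.10 and 0.22 with Satb1.

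Tfap2d shared the direction-selective genes and added Irx6 and Pou4f3. At r of 0.3 or more stood 0.12% of the compared genes, and 3 of 5 direction-selective genes and 2 of 18 listed class factors. Satb1 itself was the most alike (0.40), followed by Pcdh11x (0.36), C230085N15Rik (0.35), Ralyl (0.35), which encodes an RNA-binding protein, and Irx6 (0.35), an Iroquois homeobox gene. Irx6 was positive in 49.7% of Tfap2d-positive and 23.1% of Tfap2d-negative cells. Pou4f3 (r 0.34) was positive in 41.2% and 15.3% of those cells. Given the number of positive genes per cell, r with Tfap2d was 0.28 for Irx6 and 0.295 for Pou4f3. Tbr1, the T-box factor of another RGC class, also met Tfap2d: 50.6% of the 79 Tbr1-positive cells were Tfap2d-positive, against 31.8% of the other cells. The amacrine members of its own family were not shared in this way, as Tfap2a was positive in 17% of Tfap2d-positive and 16.3% of Tfap2d-negative cells, and Tfap2b in 32.7% and 33.2%. Gm15825, on the opposite strand across the Tfap2d start, was positive in 35 cells, 26 of them Tfap2d-positive; without strand their counts over the shared stretch cannot be told apart.

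Cells with both Satb1 and Tfap2d had higher shares of the direction-selective genes Cartpt, Cdh6 and Col25a1 than cells with either gene alone. Cartpt was positive in 86.1% of the cells with both, in 64.6% of the 96 with Satb1 only, in 39.1% of the 64 with Tfap2d only and in 49.3% of those with neither. For Cdh6 the shares in the same order were 63.4%, 28.1%, 20.3% and 23.7%, and for Col25a1 36.6%, 10.4%, 7.81% and 6.16%. Cdh6 and Col25a1 were thus near the level of cells with neither gene in cells that carried 1 of the pair. The other listed direction-selective genes were Fstl4 (36.6%, 29.2%, 12.5% and 15.6% in the same order) and Mmp17 (10.9%, 6.25%, 3.13% and 4.74%). For each of them the intervals of cells with both and with Satb1 only overlap. Bnc2 was positive in 40.6% of cells with both, 25% with Satb1 only, 6.25% with Tfap2d only and 18.96% with neither. Its intervals with Satb1 only (16.7% to 34.9%) and with neither (13.9% to 24.9%) overlap. Pou4f3 was positive in 47.5%, 25%, 31.2% and 10.9%, so it was above the last group with either gene. Median positive genes were 6201, 5753.5, 5866.5 and 5025 in these groups, and their part in the differences was not tested.

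**Figure D4:**
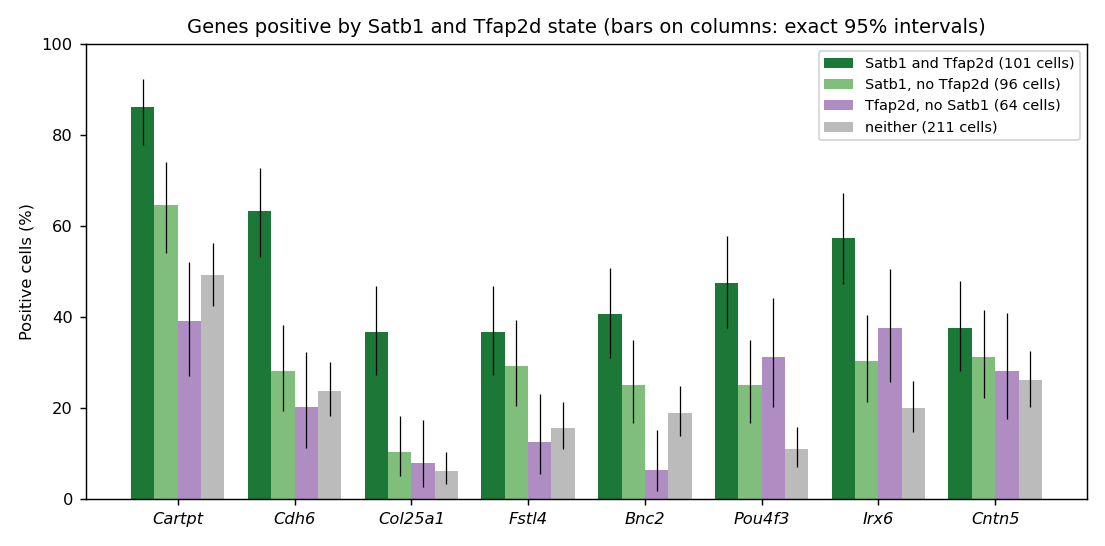
Share of cells positive for 8 genes in cells with Satb1 and Tfap2d, Satb1 only, Tfap2d only and neither, with exact 95% intervals. Cdh6 reaches 63.4% and Col25a1 36.6% in cells with both factors, against at most 28.1% and 10.4% in the other 3 groups.

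Satb1, Tfap2d and Bnc2 were more frequent in the 50 cells positive for both Col25a1 and Cdh6, a direction-selective profile. Satb1 was positive in 80% of these 50 cells (37.2% of the other cells), Tfap2d in 80% (29.6%) and Bnc2 in 68% (17.8%). Neurod2 was positive in 2 of the 50 cells (0.488% to 13.7%), against 14.2% of the others (11.03% to 17.9%). Foxp2 was also positive in 2 (0.488% to 13.7%), against 8.06% (5.64% to 11.1%). Zic1 was positive in 0 (exact upper limit 7.11%), while 4.27% of the other cells had it (2.55% to 6.66%). Foxp1 was at 26% (14.6% to 40.3%) and 18.5% (14.9% to 22.5%). For Neurod2, Foxp2, Zic1 and Foxp1 the intervals of both groups overlap. In the 22.5% of cells with Spp1 and Kcng4, genes of alpha RGCs, Satb1 was positive in 32.1% and in 44.5% of the rest, Bnc2 in 11.3% and 26.5%, and Foxp2 in 2.83% and 9.02%. In the 75 cells with Opn4 or Eomes, the melanopsin class, Foxp1 was positive in 29.3% and in 17.4% of the rest. The intervals overlap for this Foxp1 comparison and for Satb1 and Foxp2 in the alpha comparison, but not for Bnc2 there.

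Bnc2 had the strongest correlations of the set. With it 0.381% of the compared genes reached r 0.3, and 2 of 5 direction-selective and 2 of 6 other subtype genes did. Mmp9, a secreted metalloproteinase gene, led (r 0.63) and was positive in 82.6% of Bnc2-positive cells, against 26.7% of Bnc2-negative cells. Pcdh8, a protocadherin gene, followed (0.60), then Cdh6 (0.54), Fam19a1 (0.53), which encodes a secreted neurokine-like protein, and Adamts18 (0.48), a protease gene. Cdh6 was positive in 75.2% of Bnc2-positive and 19.8% of Bnc2-negative cells, and Htr1d, a serotonin receptor gene (r 0.43), in 72.5% and 26.2%. In the 110 cells with both Mmp9 and Htr1d, Bnc2 was positive in 66.4% and in 9.94% of the others, while Satb1 was at 46.4% and 40.3%. Bnc2 and Mmp9 met in 52 cells of run A against 26.4 expected, 19 of run B against 9.88, 14 of run C against 5.94, 3 of run D against 1.02 and 2 of run E against 1.05.

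Coch went the other way from Bnc2. This gene of the secreted protein cochlin was positive in 15.6% of Bnc2-positive and 46.8% of Bnc2-negative cells, with r of -0.31, and 17 cells carried both against 47.05 expected within bins. Without cells carrying 3 or more amacrine markers, 5 cells did against 22.8. Meis2, a TALE homeobox gene, was also lower with Bnc2 (43.1% and 63.9%, r -0.26). Adcyap1, the gene of the neuropeptide PACAP, was higher (52.3% and 21.8%, r 0.28). Cntn5 was positive in 46.8% and 24.8% of these cells, a wider gap than with Satb1 itself; the difference between the gaps was not tested. The paralogue Bnc1 was positive in 1 cell.

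**Figure D5:**
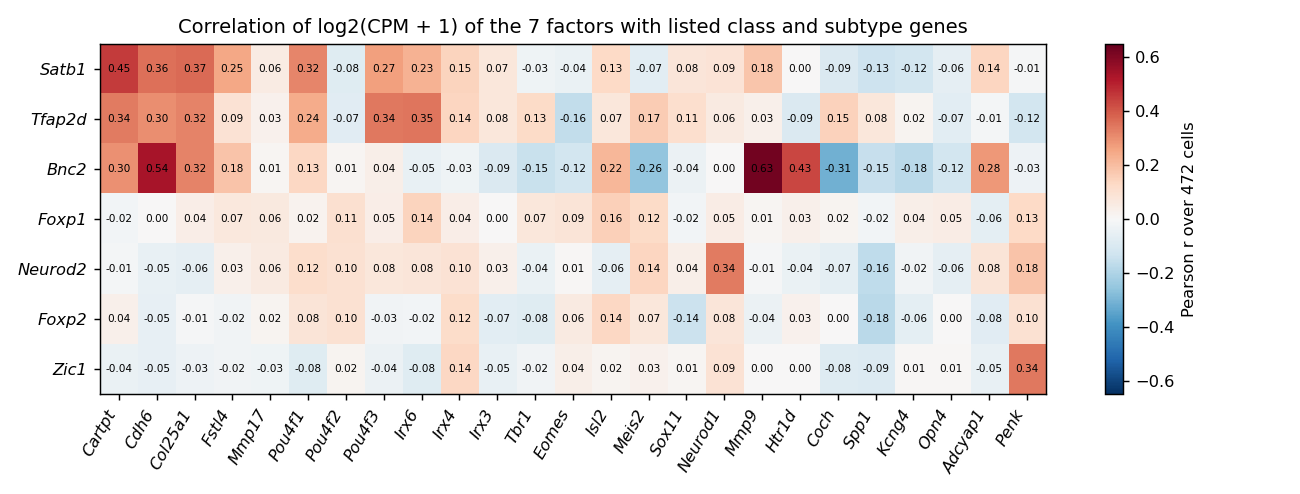
Pearson r over all cells between each factor and 25 listed class and subtype genes, on log2(CPM + 1). Cdh6 and Col25a1 reach 0.3 with Satb1, Tfap2d and Bnc2, Cartpt does so with Satb1 and Tfap2d (0.299 with Bnc2), Bnc2 alone reaches Mmp9 (0.63) and Htr1d (0.43), Neurod2 stands with Neurod1 (0.34), and no gene reaches 0.3 in the Foxp1 and Foxp2 rows.

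Neurod2 was tied to its own relative Neurod1. Of the compared genes 0.0565% reached r 0.3. Among them were Kctd4 (0.39), Gpr149 (0.34), an orphan receptor gene, and Neurod1 (0.34). Neurod1 was positive in 79% of Neurod2-positive and 40.7% of Neurod2-negative cells. Satb1 was positive in 46.8% of Neurod2-positive cells, near its overall share.

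Markers of several other cell types moved with Neurod2, those of amacrine and bipolar cells among them. Of Neurod2-positive cells, 67.7% had 3 or more of the 9 amacrine markers, against 40.98% of Neurod2-negative cells, and 54.8% had 3 or more of the 10 bipolar markers, against 32.2%. Rod markers reached 3 or more in 62.9% and 48.3%, Müller glia markers in 91.9% and 77.6%, horizontal cell markers in 95.2% and 79.02%, and cone markers in 16.1% and 10.7%. Astrocyte (1.61% and 2.44%) and microglia markers (0% and 2.20%) went the other way. Median positive genes were 6013 and 5436, and their part was not tested. The summed amacrine level ran from 0.532 to 5293 CPM (median 464.95) in Neurod2-positive and from 0 to 5741 CPM (median 308.3) in Neurod2-negative cells, and 0 of the 9 markers were absent from the Neurod2-positive cells. The bipolar sum had medians of 166.6 and 63.6 CPM, with highest values of 2404 and 2625 CPM. Among the 47.5% of cells with under 3 of either marker list, Neurod1 was positive in 10 of 15 Neurod2-positive cells (66.7%), against 22% of Neurod2-negative cells. Run A held 22 cells with Neurod2 and Neurod1 against 12.1 expected, run B 9 against 6.10, run C 10 against 6.39, run D 2 against 1.07 and run E 6 against 4.42.

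Foxp1 had no close partner. No gene reached r 0.3 with it (0% of those compared), and the highest, the glutathione transferase gene Gstm1, had r 0.27 and was positive in 39.6% of Foxp1-positive and 15.2% of Foxp1-negative cells. Eomes, the T-box factor of melanopsin RGCs, was positive in 16.5% and 6.82%, and Isl2, a LIM homeobox gene, in 53.8% and 37%. Tfap2a, an amacrine factor, was positive in 26.4% and 14.2%, and 11 of the 24 cells with Foxp1 and Tfap2a were in run C. Among cells without 3 or more amacrine markers, a list that holds Tfap2a, 1 cell carried both against 0.840 expected. Gm20696, annotated across Foxp1 on its own strand, was positive in 14 cells, 3 of them Foxp1-positive.

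Foxp2 also had no gene at r 0.3 (0%), the highest being Gm43857 (0.28), positive in 22.2% of Foxp2-positive and 2.06% of Foxp2-negative cells. Pou4f1 was positive in 94.4% of Foxp2-positive and 80.5% of Foxp2-negative cells, Isl2 in 58.3% and 38.8%, and Irx4, an Iroquois gene of part of the F-RGCs, in 25% and 14.4%. Spp1, the osteopontin gene of alpha cells, was positive in 22.2% and 48.4%, and Sox11, a SoxC factor, in 16.7% and 41.5%. With under 37 Foxp2-positive cells these shares are coarse. Amacrine markers were counted at 3 or more in 55.6% of Foxp2-positive and 43.6% of Foxp2-negative cells, bipolar markers in 50% and 33.9%, and rod markers in 63.9% and 49.1%. The summed bipolar level had medians of 167.5 and 68.3 CPM, and the part of these markers was not tested.

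The Foxp pair met in few cells. In 10 cells both were positive against 7.27 expected within bins, so 10 of 36 Foxp2-positive cells (27.8%) had Foxp1, against 18.6% of Foxp2-negative cells. In these 10 cells Foxp1 ran from 10.2 through a median of 44.6 to 238.6 CPM, and Foxp2 from 34.1 through 111.1 to 514 CPM. Foxp2 in the 26 cells without Foxp1 had a median of 67.2 CPM, and Foxp1 in the 81 cells without Foxp2 one of 32.6 CPM, so the ranges overlap. Sox11 was positive in 10% of cells with both, 19.2% with Foxp2 only, 41.98% with Foxp1 only and 41.4% with neither. Insrr, an insulin-receptor-related kinase gene, was positive in 50%, 11.5%, 2.47% and 3.10% of these groups, and Tcerg1l in 40%, 34.6%, 11.1% and 11.8%; both were chosen after their values were seen. Without cells carrying 3 or more bipolar markers, 2 cells had both Foxp genes against 3 expected. Foxp4 was positive in 98 cells (20.8%), with r of 0.09 to Foxp1 and 0.05 to Foxp2, and Foxp3 in 1 cell.

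Zic1 was the rarest of the set. Of the compared genes 0.134% reached r 0.3 with it, with 1 of 15 family genes and 1 of 6 other subtype genes among them. Fmod (0.42), the gene of fibromodulin, Ccnd2 (0.40), a cyclin gene, Lyz2 (0.40), a lysozyme gene of myeloid cells, Fbln1 (0.38), the gene of fibulin, and Slc13a4 (0.36), a sulfate transporter gene, were the most alike. By Spearman's rho, of these 5 genes, Fmod (0.32) stayed above 0.3 and the others lay between 0.22 and 0.29. Each rests on 6 to 9 cells positive for both; Fmod, for example, was positive in 33.3% of Zic1-positive and 3.30% of Zic1-negative cells. Penk, the proenkephalin gene (0.34), was positive in 61.1% and 14.98%. Zic4 (0.35), whose locus overlaps Zic1 on the opposite strand, was positive in 3 cells, 2 of them Zic1-positive, and without strand the counts of the overlapping pair cannot be told apart. Zic2 was positive in 2 cells and Zic5 in 3.

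Markers of other cells were frequent in Zic1-positive cells. Of the 18 cells, 13 (72.2%) had 3 or more amacrine markers, against 43.4% of Zic1-negative cells, and 13 had 3 or more bipolar markers, against 33.7%. Rod markers reached 3 or more in 77.8% and 49.1%, and Müller glia markers in 100% and 78.6%. Microglia markers did so in 11.1% and 1.54%, and astrocyte markers in 5.56% and 2.20%, while no cell reached 3 of 4 vessel markers. Summed amacrine levels ran from 25.4 to 2625 CPM (median 299.9) in Zic1-positive cells and from 0 to 5741 CPM (median 336.4) in Zic1-negative cells. The summed level of general RGC genes had a median of 4503 CPM in Zic1-positive and 7986 CPM in Zic1-negative cells, and the ranges overlap. Pou4f1 was positive in 66.7% and 82.2%. The part of these markers in the Zic1 results was not tested, and 4 Zic1-positive cells remain without either amacrine or bipolar marking.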

How the data were processed

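RNA was measured in single RGCs, 1 library per cell. The deposited matrix gives estimated counts per gene and cell, of which 1.36% are not whole numbers. STAR 2.7.0 and mm10 are named, per the submitters' processing notes; the authors' quantifier, annotation and strand setting were not given in the sources used here. Library names were joined to cells by the deposited key, with 0 rows unmapped. Here the counts were rounded to whole numbers, ERCC spike-ins were left out, and counts were scaled to 1000000 per cell (CPM). All 55450 identifiers are in GENCODE mouse release M21, which gave mm10 positions, 1-based, and merged exon lengths. Doublets were not called, since cells were picked singly.

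Positive means 10 CPM or more. For each pair, the count of double-positive cells was compared with the product of both shares, over all cells, within runs and within 5 bins of positive genes. Genes were ranked by Pearson r of log2(CPM + 1), with a pseudocount of 1, among genes positive in at least 3% of cells. Ranking by r was also run on simulated data, in which each gene was shuffled over cells separately. What genes share through a cell's run or RNA recovery was absent there, so that run cannot show how the ranking behaves with it. Named are the 7 factors, listed family, class and subtype genes, the 5 genes of highest r (at 0.3 or more, otherwise the highest alone) and annotated neighbours within 10 kb. The factors and lists were chosen with earlier results of these data known. Alternatives varied the threshold, depth, denominator, cells and runs. The share of counts from ribosomal RNA loci had a median of 17.1% over cells and a maximum of 97.7%. Python 3.11.15, numpy 2.4.6, pandas 2.3.3, scipy 1.17.1 and matplotlib 3.10.9 were used. Some items are not reported here.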

Additional observations from a re-analysis of the deposited data

Results flagged for a closer look

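ERCC spike-in RNAs, which the comparisons above do not use, took up to 31.1% of all counts of a cell, with a median of 0.738%, above the 0.00371% that a count of 0 allows in the shallowest cell. In the 31 cells with over 5% spike-ins, at least 1 of the 7 factors was positive in 10 cells (32.3%), against 79.4% of the other cells. Satb1 was positive in 5 of these 31 cells, Foxp1 in 3, Foxp2 in 2, Neurod2 in 1, and Tfap2d, Bnc2 and Zic1 in 0. Median positive genes were 1727 in them and 5732 in the rest, and the part of RNA content in the missing factors was not tested.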

How the results depend on the processing

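No paired analysis was possible because all cells form 1 group. The threshold set the shares. At 1 CPM they were 51.9% for Satb1, 43.6% for Tfap2d, 27.8% for Bnc2, 35.4% for Foxp1, 18.2% for Neurod2, 11.2% for Foxp2, 6.57% for Zic1, 84.3% for at least 1 factor and 61.02% for 2 or more. At 100 CPM they were 16.9%, 13.1%, 10.8%, 2.33%, 1.27%, 3.18%, 0.424%, 36.02% and 10.4% in the same order, and 7 of the 21 pairs were above expectation in place of 13. In cells with at least 3000 positive genes Satb1 was at 46.4%, at least 1 factor at 82.96% and 2 or more at 51.4%. Without amacrine-marked cells Neurod2 was at 7.63%, Zic1 at 1.91% and 2 or more factors at 39.7%; without bipolar-marked cells Neurod2 was at 9.15% and Zic1 at 1.63%. Without both kinds, an alternative chosen after seeing the data, Foxp1 was at 15.2%, Foxp2 at 5.36%, Neurod2 at 6.70%, Zic1 at 1.79%, at least 1 factor at 71.4% and 2 or more at 39.3%. Without run A, Bnc2 was at 18.5% and Foxp2 at 10.9%. The shares at 1 and 100 CPM differ by construction, since the threshold defines them. What moved the shares in the subsets of cells and runs was not tested.

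Of the recomputed shares 34 moved and 83 stayed within the interval of the value above, including all those after thinning each cell to 1000000 counts and after leaving ribosomal RNA and mitochondrial genes out of the denominator. Ranked by Spearman's rho, 7 of 35 likeness values crossed 0.3, among them Lyz2 with Zic1 (0.22), and 5 of the 7 factors still had a gene above it. Given the number of positive genes, 3 of these values crossed 0.3. Irx6 and Ralyl with Tfap2d fell to 0.28 each and Neurod1 with Neurod2 to 0.297. Pou4f3 with Tfap2d, which is not among the 35, fell to 0.295. Of 33 ratios of observed to expected double-positive cells (21 factor pairs, 12 with listed genes), 30 moved at 100 CPM, 1 at 1 CPM, 6 without amacrine-marked, 4 without bipolar-marked and 8 without both kinds of cells, and 1 without run B. Pairs with under 10 cells are limited by the number of cells.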

Other observations

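Further genes, chosen after their values were seen, added to these profiles, all but Hpcal4 from outside the lists. Prdm8 and Tcf4, both transcription factor genes, accompanied Neurod2: Prdm8 was positive in 33.9% of Neurod2-positive and 6.59% of Neurod2-negative cells (r 0.33), and Tcf4 in 82.3% and 44.1% (r 0.33). Chrna3, a nicotinic receptor subunit gene, was positive in 63.3% of Bnc2-positive and 18.5% of Bnc2-negative cells (r 0.46). The genes most opposed to Bnc2 were Galntl6 (16.5% and 55.4%, r -0.34) and Sorcs1, a sorting receptor gene (14.7% and 50.96%, r -0.33). Scn7a, a sodium channel gene, was positive in 7.88% of Tfap2d-positive and 28.3% of Tfap2d-negative cells (r -0.26). Hpcal4, a calcium sensor gene, was positive in 53.2% of Neurod2-positive and 29.3% of Neurod2-negative cells.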
